A study of Mus musculus with 4 samples.

Results

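The genes examined were 31 genes of the tricarboxylic acid (TCA) cycle, of the reactions that feed and drain it, and of itaconate synthesis, out of 17013 genes listed in the deposited expression values. They were picked by name from the biochemistry of the pathway, and all 31 were found, with Acod1 under its older symbol Irg1. Wild-type macrophages grown from mouse bone marrow with M-CSF sat for 24 h on porous inserts, between aNBF (artificial necrotic bone fluid) above and an extract of freeze-thawed abdominal fat below. In Con the extract was the middle layer of the preparation, and in Fat it was the top layer, which holds the fat, so aNBF and fat-tissue extract were present in both groups and there was no untreated group. RNA was sequenced in 4 libraries, replicates 1 and 2 of each group, with 33573852 to 40785872 reads on genes each. The labels do not say whether replicates came from separate animals or cultures, so the p-values measure the spread between these libraries, which may be technical. The mice were male C57BL/6 in the study's methods, and their age for these cultures is not given in the sources used here.

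The TCA cycle oxidizes acetyl groups to CO2 in the mitochondrial matrix and passes the electrons to the respiratory chain. Carbon drawn off for lipids, amino acids or glucose is replaced by anaplerosis, for example by pyruvate carboxylase or by glutamate. In inflammatory macrophages part of the aconitate of the cycle is diverted by aconitate decarboxylase 1, the product of Acod1, to itaconate, an antimicrobial and immunoregulatory acid that inhibits succinate dehydrogenase. Acod1 is known as a gene that interferons and Toll-like receptor ligands switch on.

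One of the 31 genes, Acod1, differed between Fat and Con by the test used, with Fat lower, while of all 12470 genes tested 3.99% were called higher in Fat and 5.0% lower. Its level was 96.4 and 73.8 CPM (read counts scaled to library size) for the Con pair, against 24.1 and 14.8 CPM for the Fat pair. Both Fat libraries lay far below both Con libraries, and the groups did not overlap. The mean fell from 85.1 ± 15.9 CPM in Con to 19.5 ± 6.58 CPM in Fat (SD, n = 2 each). On the log2(CPM + 0.1) scale the fold change was -2.15 (standard error, SE, 0.22, 95% interval -2.66 to -1.65, adjusted p = 0.00348 in limma), a Con level 4.44-fold that of Fat on this scale. Of all genes tested, 17 (0.136%), Acod1 included, had a log2 fold change this low or lower. Without limma's mean-variance trend the adjusted p was 0.0831 and Acod1 was not called. Leaving out any 1 library gave a fold change between -2.50 and -1.80, called each time. These values rested on 3268 and 2769 reads in Con and 900 and 607 reads in Fat, and 0 of the 510 stretches of 75 bases taken from its transcripts also matched another gene.

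The start of Acod1 is printed here because it is the gene whose level moved. RefSeq places this promoter at chr14:103046762-103047061 on the forward strand of GRCm38.p6, and the 300 bases run from 250 before the start site to 50 after it. The capitals mark an interferon regulatory factor (IRF) core AANNGAAA, directly after it an NF-kB motif (GGG and CC with any 5 bases between them), and a TATA box TATAAA.
Acod1 promoter: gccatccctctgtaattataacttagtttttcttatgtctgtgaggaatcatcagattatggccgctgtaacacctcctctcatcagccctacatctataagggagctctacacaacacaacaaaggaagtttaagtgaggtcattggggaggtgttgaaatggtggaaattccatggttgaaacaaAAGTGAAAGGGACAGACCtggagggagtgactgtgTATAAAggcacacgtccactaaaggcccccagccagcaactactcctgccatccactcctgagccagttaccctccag

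The motifs were searched on both strands and chosen with this sequence in view, and a match is a description and not a binding site. The IRF core lay 63 to 56 bases before the start site, the NF-kB motif 55 to 46 bases and the TATA box 28 to 23 bases before it. The IRF core was found in 23.9% of the 32851 RefSeq promoters of this length, the NF-kB motif in 50.8% and the TATA box in 13.6%. Entries were found for 29 of the 31 genes, with 37 promoters. The IRF core was in 8 of these, the NF-kB motif in 26 and the TATA box in 2. The full interferon-stimulated response element (GAAA repeated after any 2 bases), which contains the IRF core, and the gamma-activated site TTCNNNGAA had no match in the Acod1 promoter. They occurred in 3.44% and 8.30% of all promoters.

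In bulk RNA, fewer cells of a type and less RNA per cell cannot be told apart. The 10 macrophage markers were all detected and summed to between 36532 and 38744 CPM in Con and between 28728 and 30400 CPM in Fat. Lyz2 made up most of each sum, at 28720 and 26819 CPM in Con and 21516 and 20347 CPM in Fat. It was not called by limma (adjusted p = 0.209) but was by DESeq2 (adjusted p = 1.6e-06). Of the 10 markers 4 were called lower and 0 higher by limma (7 lower and 0 higher at an unadjusted p under 0.05). Of all 12470 genes tested 5.0% were called lower, and 1541 were lower and 1467 higher at an unadjusted p under 0.05. Cd68 and Itgam had overlapping groups, with log2 fold changes of 0.09 and 0.07. The 14 adipocyte markers summed to between 0.236 and 0.320 CPM in Con and between 6.98 and 13.1 CPM in Fat, with 7 of them, Adipoq and Lep included, at 0 reads in both Con libraries and none at 0 in both Fat libraries. One of the 7 is Pck1, the cytosolic counterpart of Pck2, with 0 reads in Con and 19 and 10 reads in Fat, which fell under the filter. Neutrophils can also express Acod1, and 7 of their 8 listed markers were in the data and summed to between 333.9 and 378.0 CPM in Con and between 322.9 and 323.0 CPM in Fat. S100a8 and S100a9 made up most of that sum, and of the 7 markers 0 were called by limma, edgeR or DESeq2. At an unadjusted p under 0.05, 3 were lower (Mpo, Camp and Ngp, with log2 fold changes of -1.03, -0.42 and -0.26) and 0 higher. In 5 markers both Fat libraries lay below both Con libraries, which held for 26.2% of all genes tested. Markers of adipose stroma, 7 of 7, summed to between 613.8 and 637.7 CPM in Con and between 512.5 and 656.6 CPM in Fat. Col1a1 and Col1a2 made up most of that sum. Of the 5 tested, limma called 1 lower, Dcn (log2 fold change -0.82, adjusted p = 0.0358), and 0 higher. At an unadjusted p under 0.05, 3 were lower and 0 higher. Markers of T cells, 4 of 5, summed to between 4.05 and 5.04 CPM in Con and between 2.44 and 2.76 CPM in Fat. Of the 3 tested, 0 were called, and 2 were lower and 0 higher at an unadjusted p under 0.05. Endothelial markers, 4 of 5, summed to between 4.58 and 6.28 CPM in Con and between 6.89 and 7.56 CPM in Fat. B cell markers, 4 of 4, summed to between 22.5 and 23.5 CPM in Con and between 18.0 and 21.8 CPM in Fat. By limma 0 of the endothelial and 0 of the B cell markers tested were called. The part of these differences in the fall of Acod1 was not tested.

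The other 30 genes had log2 fold changes between -0.47 and 0.22. By limma, 0 of them were called higher and 0 lower in Fat. At an unadjusted p under 0.05, 4 were higher and 4 lower, against 1467 higher and 1541 lower of all 12470 genes tested. On the recovered reads edgeR's quasi-likelihood test and DESeq2 called 0 of the 30 as well. The median log2 fold change of the 31 genes was -0.02, against 0.01 for all genes tested. An absolute log2 fold change under 0.25 was found for 29 of the 31 genes (93.5%), against 76.5% of all genes. In 17 of the 31 genes (54.8%) the Fat and Con libraries did not overlap, 7 with Fat higher and 10 with Fat lower. Over all genes tested 55.6% did not overlap, 29.4% with Fat higher and 26.2% with Fat lower.

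A p above the threshold does not show that levels were equal, so the intervals are given. For all 30 genes the 95% limma interval excluded a change of 2-fold in either direction, and for 29 it excluded 1.5-fold, Pcx being the exception. The SEs ran from 0.05 to 0.12 on the log2 scale. Exons of Idh3b, Mdh1, Me1, Got2, Pck2, Acss1, Acss2, Slc25a10 and Slc25a11 overlap a gene on the opposite strand in the GENCODE vM21 annotation, and since the strand setting of the counting is not known here, their levels could hold reads of that neighbour.

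**Figure D1:**
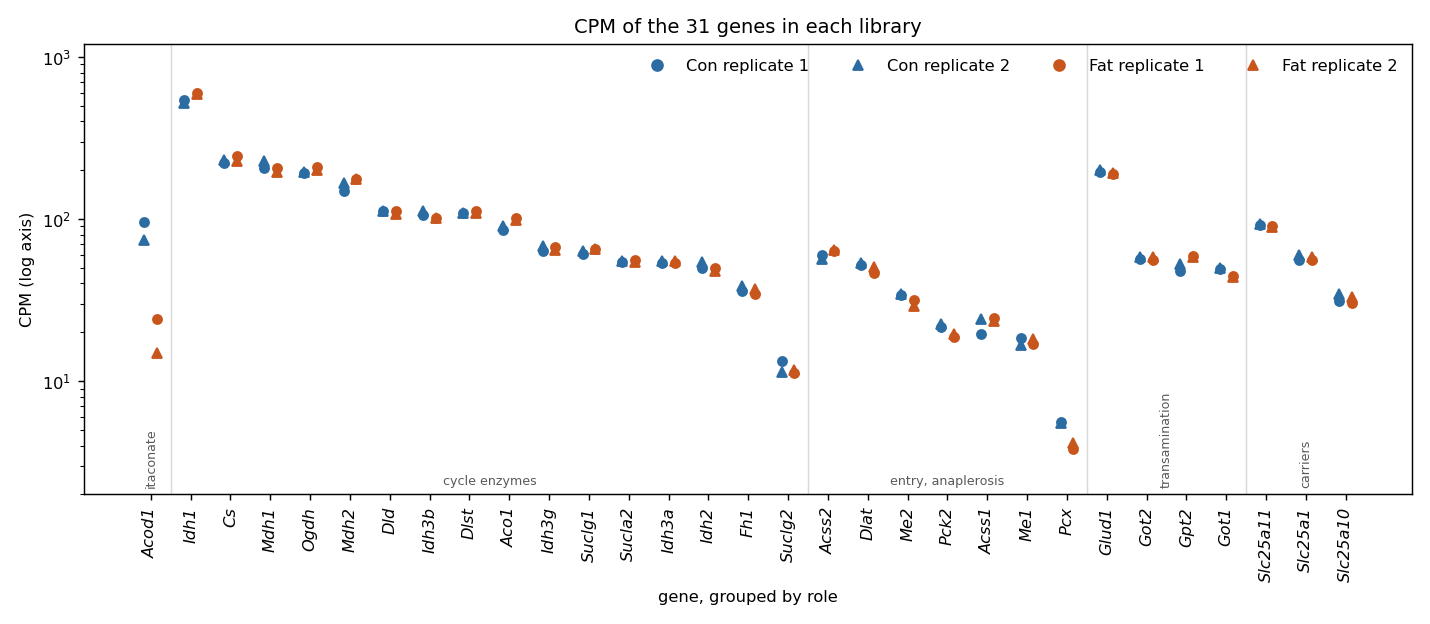
CPM on a log axis of the 31 genes in each library, grouped by role and ordered by mean Con level within a role (blue: Con, orange: Fat, circle: replicate 1, triangle: replicate 2). The Fat points of Acod1 sit at 24.1 and 14.8 CPM, well under its Con points at 96.4 and 73.8, while the points of nearly every other gene lie close together.

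**Figure D2:**
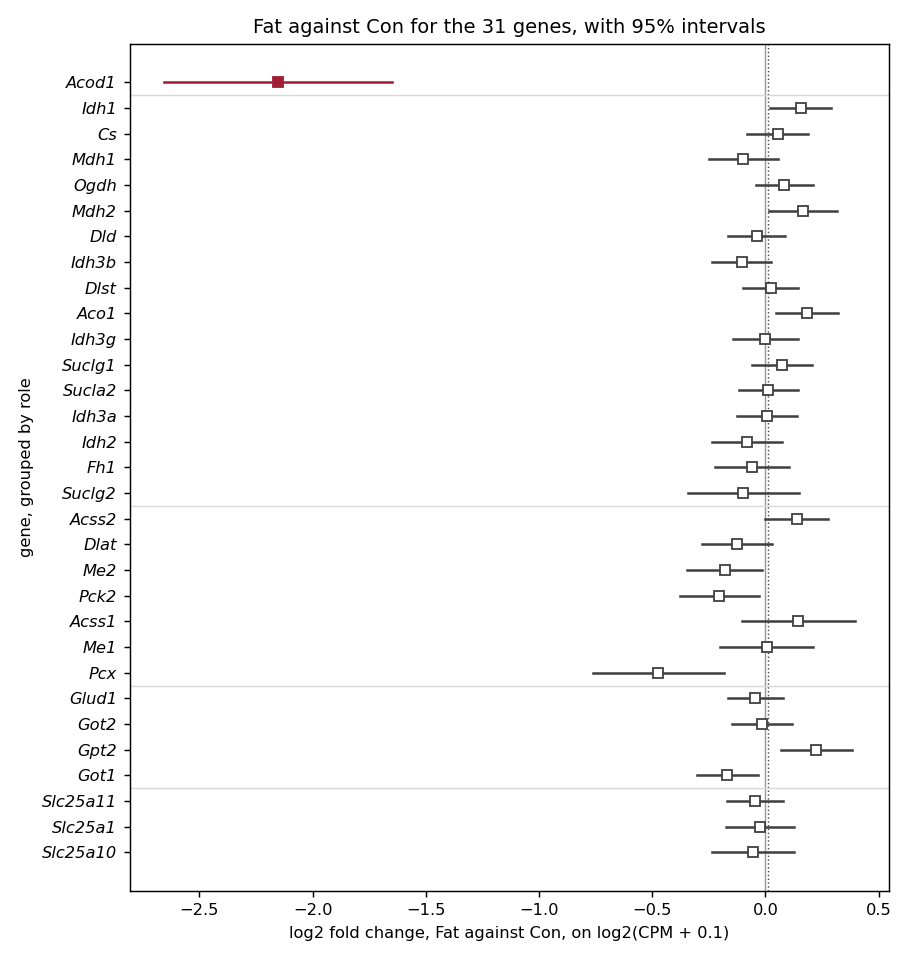
Log2 fold change of Fat against Con on log2(CPM + 0.1) for the 31 genes (squares) with 95% limma intervals (bars). The filled square is the gene called, the solid line is 0 and the dotted line is the median of all genes tested, 0.01. Acod1 stands at -2.15, and the others lie between -0.47 and 0.22.

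Among the 16 enzymes of the cycle itself, or their cytosolic counterparts, 0 were called in either direction by limma, and 3 had an unadjusted p under 0.05, all with Fat higher. Their median log2 fold change was 0.01, with a range from -0.11 to 0.18. Citrate synthase (Cs), which joins acetyl-CoA and oxaloacetate at the entry of the cycle, was at 222.3 and 231.7 CPM in Con and 242.8 and 228.9 CPM in Fat. The groups overlapped, and the log2 fold change was 0.05 (95% interval -0.08 to 0.19). Aco1, the cytosolic aconitase that also serves as an iron-regulated RNA-binding protein, was at 85.2 and 90.8 CPM in Con and 101.6 and 98.2 CPM in Fat. It was higher in both Fat libraries, by 0.18 on the log2 scale (SE 0.06, adjusted p = 0.101 in limma), and was not called.

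Idh1 and Idh2 encode the NADP-dependent isocitrate dehydrogenases of the cytosol and the mitochondrion, and Idh3a, Idh3b and Idh3g the subunits of the NAD-dependent enzyme of the cycle. Idh1 had the highest level per transcript length of the 31 genes in both groups, at 483.2 and 459.4 TPM (transcript abundance scaled for gene length) in Con and 540.5 and 532.3 TPM in Fat. Its log2 fold change was 0.16 in CPM (SE 0.06, adjusted p = 0.152 in limma). Idh2 was at 49.7 and 54.1 CPM in Con and 50.1 and 47.8 CPM in Fat, so the groups overlapped. The log2 fold changes of the 3 subunits of the NAD-dependent enzyme were 0.01 for Idh3a, -0.11 for Idh3b and -0.0003 for Idh3g. Idh3b was lower in both Fat libraries (106.3 and 112.6 CPM in Con, 101.4 and 102.0 CPM in Fat), by a difference that was not called (limma adjusted p = 0.299).

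The alpha-ketoglutarate dehydrogenase complex is built from Ogdh, Dlst and Dld, the last of which also serves the pyruvate dehydrogenase complex. Ogdh was at 191.6 and 196.1 CPM in Con and 209.5 and 201.4 CPM in Fat (log2 fold change 0.08, 95% interval -0.04 to 0.21). The log2 fold change was 0.02 for Dlst and -0.04 for Dld. Within each library the TPM of Ogdh was 0.70 and 0.71 times that of Dlst in Con and 0.74 and 0.73 times in Fat, and that of Dld was 1.25 and 1.25 times in Con and 1.21 and 1.19 times in Fat. The groups did not overlap in either ratio, with Ogdh higher and Dld lower against Dlst in both Fat libraries, which was not tested. Among the other subunit ratios taken, Idh3a over Idh3b and Suclg1 over Sucla2 were higher in both Fat libraries. Idh3a over Idh3g and Dlat over Dld overlapped between groups. How often such ratios part over other pairs of genes was not tested.

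Succinyl-CoA synthetase joins the shared subunit Suclg1 to Sucla2, which makes it ATP-forming, or to Suclg2, which makes it GTP-forming. Sucla2 was at 54.2 and 55.2 CPM in Con and 56.0 and 54.3 CPM in Fat, a log2 fold change of 0.01. Suclg2 was at 13.3 and 11.3 CPM in Con and 11.2 and 11.8 CPM in Fat, again with overlapping groups. Per transcript length Sucla2 was 6.53 and 7.79 times as abundant as Suclg2 in the Con libraries and 8.03 and 7.39 times in the Fat libraries. For Suclg2, 41.4% of the stretches of 75 bases also matched a processed pseudogene, so its level is uncertain. The ATP-forming subunit was the more abundant transcript in each of the 4 libraries. Suclg1 was at 60.5 and 63.5 CPM in Con and 65.1 and 65.4 CPM in Fat, a log2 fold change of 0.07 that was not called.

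Fumarase (Fh1), which makes malate from fumarate, was at 35.8 and 38.5 CPM in Con and 34.5 and 36.8 CPM in Fat, with overlapping groups. Malate dehydrogenase has a mitochondrial form, Mdh2, and a cytosolic form, Mdh1. Mdh2 was at 149.3 and 165.8 CPM in Con and 176.1 and 177.1 CPM in Fat, higher in both Fat libraries (log2 fold change 0.17 with SE 0.06, adjusted p = 0.165 in limma). Mdh1 was at 206.0 and 226.2 CPM in Con and 207.4 and 196.0 CPM in Fat, with overlapping groups and a log2 fold change of -0.10.

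Of the 7 genes of entry and anaplerosis, 0 were called by limma and 3 were lower in Fat at an unadjusted p under 0.05, with a median log2 fold change of -0.13. Pcx, pyruvate carboxylase, which turns pyruvate into oxaloacetate, had the second lowest fold change of the 31 genes. It was at 5.60 and 5.54 CPM in Con and 3.83 and 4.15 CPM in Fat, with both Fat libraries below either Con library. The log2 fold change was -0.47 (SE 0.12, 95% interval -0.76 to -0.19, adjusted p = 0.0583 in limma), just outside the threshold. After rescaling by median ratios it was -0.48 with an adjusted p of 0.0498 by limma, and was called. The replicate block also gave a call (limma adjusted p = 0.0146). Pcx was not called by limma with TPM (adjusted p = 0.110) or without the trend (0.0841). Nor was it called by edgeR (adjusted p = 0.0573) or DESeq2 (0.192). With any 1 library left out its log2 fold change ran from -0.53 to -0.42. Pcx was also the least abundant of the 31 genes per transcript length, at 2.87 and 2.78 TPM in Con and 1.99 and 2.15 TPM in Fat.

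Pck2, the mitochondrial phosphoenolpyruvate carboxykinase, which draws oxaloacetate out of the cycle, was at 21.5 and 22.6 CPM in Con and 18.7 and 19.5 CPM in Fat. Me2, mitochondrial malic enzyme, was at 34.2 and 34.5 CPM in Con and 31.8 and 28.9 CPM in Fat. Both were lower in both Fat libraries and neither was called (log2 fold change -0.20, limma adjusted p = 0.146, for Pck2, and -0.18, adjusted p = 0.175, for Me2). Dlat, the acetyltransferase of the pyruvate dehydrogenase complex, was likewise lower in both Fat libraries, at 46.2 and 50.8 CPM against 52.2 and 53.4 CPM in Con (log2 fold change -0.13, limma adjusted p = 0.306).

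Me1, cytosolic malic enzyme and a source of NADPH for fatty acid synthesis, had a log2 fold change of 0.01 (95% interval -0.20 to 0.21), and 56.1% of its stretches of 75 bases also matched other genes, so it is uncertain. Acss2, the nuclear and cytosolic acetyl-CoA synthetase, was at 60.2 and 56.4 CPM in Con and 63.7 and 64.6 CPM in Fat (log2 fold change 0.14, limma adjusted p = 0.211). Its mitochondrial counterpart Acss1 had overlapping groups, because Con replicate 2, at 24.1 CPM, lay among the Fat libraries while Con replicate 1 was at 19.4 CPM.

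The glutamate group links the cycle to amino acids. Gpt2, the mitochondrial alanine transaminase, had the highest fold change of the 31 genes, at 47.8 and 52.9 CPM in Con and 58.9 and 58.6 CPM in Fat. Both Fat libraries were above both Con libraries, by 0.22 on the log2 scale (SE 0.07, adjusted p = 0.088 in limma), and it was not called. Without Con replicate 2 its log2 fold change was 0.30, and the lowest value with any 1 library left out was 0.15. Limma called it higher with the replicate block (adjusted p = 0.00768), but not with TPM (0.0814) or without the trend (0.220). Neither edgeR (adjusted p = 0.0906) nor DESeq2 (0.192) called it. Got1, the cytosolic aspartate transaminase of the malate-aspartate shuttle, was at 49.4 and 50.1 CPM in Con and 44.7 and 43.7 CPM in Fat (log2 fold change -0.17, limma adjusted p = 0.124). Its mitochondrial partner Got2 had a log2 fold change of -0.02 (95% interval -0.15 to 0.12) with overlapping groups, and 44.4% of its stretches of 75 bases also matched other genes. Glud1, glutamate dehydrogenase, which turns glutamate into alpha-ketoglutarate, was at 194.6 and 199.1 CPM in Con and 189.2 and 192.4 CPM in Fat (log2 fold change -0.04).

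The 3 mitochondrial carriers lay close to their Con levels. Slc25a1, which exports citrate, Slc25a10, which exchanges dicarboxylates for phosphate, and Slc25a11, which exchanges malate for alpha-ketoglutarate, had log2 fold changes of -0.02, -0.06 and -0.05. Slc25a11, at 91.9 and 93.3 CPM in Con and 90.6 and 88.9 CPM in Fat, was the carrier whose groups did not overlap.

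In this paragraph levels are compared between genes in TPM. Acod1 was at 81.5 and 61.2 TPM in Con and 20.6 and 12.7 TPM in Fat. Among the 31 genes it ranked 12 and 14 in the Con libraries and 25 and 28 in the Fat libraries. In Con its mean of 71.3 ± 14.3 TPM (SD, n = 2) was next to Slc25a1 at 74.8 ± 2.63 and Idh2 at 66.0 ± 3.03, neighbours from which it did not differ beyond its spread. In Fat, at 16.7 ± 5.64 TPM, it stood next to Slc25a10 at 17.5 ± 1.08 and Acss1 at 14.8 ± 0.399, again within its spread. The other 30 genes together summed to 2626 and 2673 TPM in Con and 2790 and 2751 TPM in Fat. Acod1 therefore went from 3.01% and 2.24% of the TPM of the 31 genes to 0.735% and 0.458%.

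Ratios between paired genes inside a library do not depend on how libraries were scaled. With 2 libraries against 2, an exact two-sided permutation test cannot give a p below 0.333, so these 7 ratios are mainly descriptive. The ratios were taken in CPM, which is not scaled for gene length, so their sign does not show which gene was more abundant. In TPM Mdh2 was 1.11 and 1.12 times Mdh1 in Con and 1.30 and 1.38 times in Fat. Idh2 was 1.31 and 1.39 times Idh3a in Con and 1.31 and 1.23 times in Fat, also in TPM. The log2 ratio of Mdh2 to Mdh1 in CPM was -0.46 and -0.45 in Con and -0.24 and -0.15 in Fat. This ratio was higher in both Fat libraries, by 0.27 on average (exact permutation p = 0.333, 0.583 after adjustment over the 7 ratios). For Got2 over Got1 the log2 ratio was 0.20 and 0.22 in Con and 0.32 and 0.40 in Fat, also higher in both Fat libraries. For Idh2 over Idh1 it went the other way, at -3.44 and -3.27 in Con and -3.57 and -3.61 in Fat, lower in both Fat libraries. Idh2 over Idh3a was -0.10 and -0.02 in Con and -0.10 and -0.20 in Fat, so the groups barely parted. The ratios of Me2 to Me1, Acss1 to Acss2 and Sucla2 to Suclg2 overlapped between groups.

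**Figure D3:**
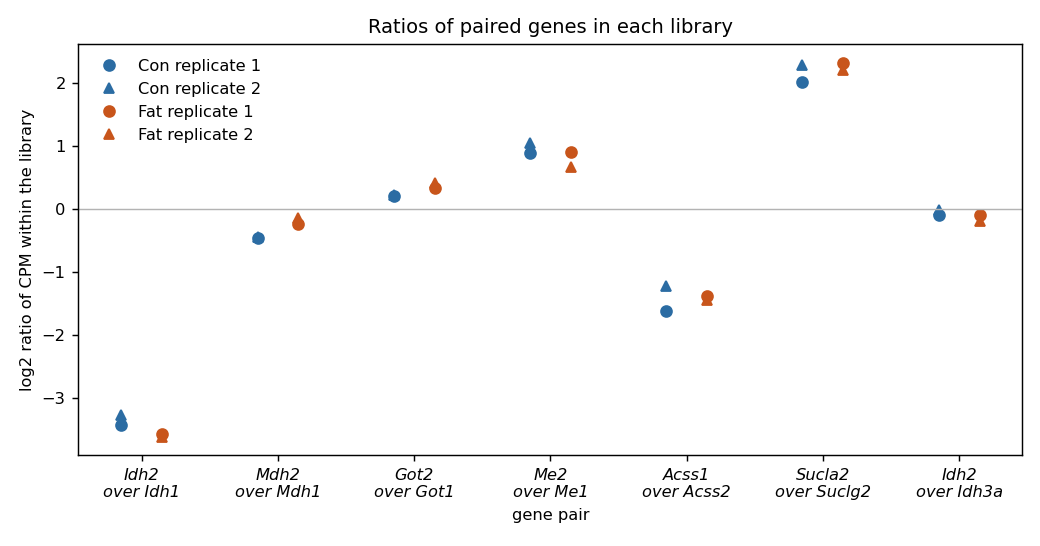
Log2 ratio of CPM of paired genes within each library (blue: Con, orange: Fat, circle: replicate 1, triangle: replicate 2). Mdh2 over Mdh1 and Got2 over Got1 lie higher, and Idh2 over Idh1 lower, in both Fat libraries, by 0.27, 0.15 and 0.24 on average.

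The neighbouring genes of the pathway were taken from lists of 63 genes chosen by their role. Of these, 53 passed the filter on low values, and by limma 3 were called higher and 3 lower. That is 11.3% of those tested, against 9.0% of all genes tested. A further 13 genes encode subunits of the cycle and of pyruvate dehydrogenase or assembly factors of succinate dehydrogenase. Of these 13, 0 were called by limma, edgeR or DESeq2, and 1 was higher and 1 lower at an unadjusted p under 0.05. Succinate dehydrogenase, the enzyme that itaconate inhibits, had log2 fold changes of -0.11 for Sdha, -0.14 for Sdhb, -0.03 for Sdhc and -0.13 for Sdhd.

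Of 9 genes of pyruvate entry and its control, 2 were called higher and 1 lower. Pdk4, a kinase that switches pyruvate dehydrogenase off, rose from 1.39 and 1.92 CPM in Con to 13.5 and 14.8 CPM in Fat (log2 fold change 3.04 with SE 0.17, adjusted p = 0.000541 in limma). Pdk1, a second kinase of that enzyme, rose from 37.1 and 42.4 CPM to 54.6 and 57.0 CPM (log2 fold change 0.49, limma adjusted p = 0.0121). Pdp1, a phosphatase that switches the enzyme back on, fell from 39.3 and 40.1 CPM to 32.7 and 32.2 CPM (log2 fold change -0.29, limma adjusted p = 0.0287). Without any 1 of the 4 libraries Pdp1 was no longer called, with adjusted p-values from 0.0708 to 0.132, nor was it with TPM (0.0815). The remaining 6 of these 9 genes were not called, among them the pyruvate carrier subunits Mpc1 and Mpc2. Without the mean-variance trend Pdk4 and Glul, described next, kept their calls (adjusted p = 0.0456 and 0.0482 in limma) and the other 4 neighbouring genes did not.

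Among 11 tested genes of glutamine, glutamate, GABA and aspartate metabolism, 1 was called higher and 1 lower. Glul, glutamine synthetase, which consumes glutamate, rose from 463.7 and 426.4 CPM in Con to 960.7 and 1008 CPM in Fat (log2 fold change 1.15 with SE 0.07, adjusted p = 0.000632 in limma). Ass1, argininosuccinate synthase, which consumes aspartate to rebuild arginine, fell from 31.5 and 24.6 CPM to 14.9 and 11.7 CPM (log2 fold change -1.07 with SE 0.15, adjusted p = 0.00771 in limma). Of 10 genes of itaconate and propionate breakdown, Mmut (listed under its older symbol Mut), methylmalonyl-CoA mutase, which turns methylmalonyl-CoA into succinyl-CoA, was called lower. It fell from 33.3 and 34.0 CPM to 26.1 and 26.8 CPM (log2 fold change -0.34, limma adjusted p = 0.0199). Its adjusted p ran from 0.0512 to 0.0626 when any 1 library was left out, so that call too needs all 4 libraries, and with TPM it was 0.0516. Clybl, which acts in itaconate breakdown, had a log2 fold change of 0.03. By limma, edgeR and DESeq2, 0 of the 5 tested carriers and 0 of the 5 tested isoforms and 2-hydroxyglutarate genes were called, and at an unadjusted limma p under 0.05, 1 carrier was lower.

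Factors known from other work to act on Acod1 were measured beside it, 8 in all. By limma 3 were called lower in Fat and 0 higher, against 5.0% and 3.99% of all genes tested. At an unadjusted p under 0.05, 5 were lower and 0 higher, against 1541 and 1467 of all 12470 genes tested. Irf1 and Irf8, interferon regulatory factors, were among those called lower, and values of the remaining factor called are not reported here. Irf1 fell from 366.9 and 361.8 CPM in Con to 224.3 and 180.0 CPM in Fat (log2 fold change -0.86 with SE 0.10, adjusted p = 0.00447 in limma). Irf8 fell from 216.5 and 234.4 CPM to 153.9 and 168.8 CPM (log2 fold change -0.48, limma adjusted p = 0.00825). Neither was called by limma fitted with no trend (adjusted p = 0.0831 for Irf1 and 0.0960 for Irf8). Rela, an NF-kB subunit, was at 69.1 and 70.7 CPM in Con and 69.5 and 67.9 CPM in Fat. The part of these factors in the level of Acod1 was not tested.

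**Figure D4:**
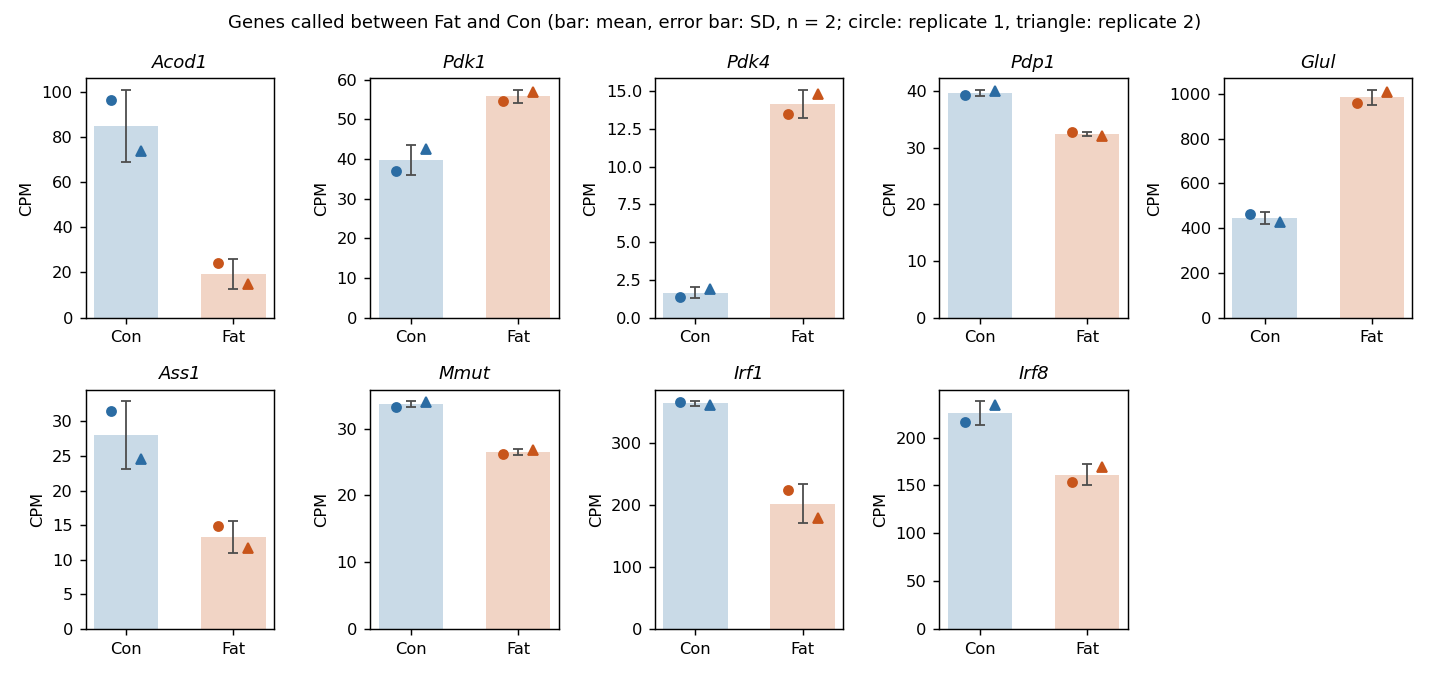
CPM of Acod1 and of 8 genes of the neighbouring lists that were called, in Con and Fat (bar: mean, error bar: SD, n = 2, circle: replicate 1, triangle: replicate 2, each axis from 0). Pdk4, Pdk1 and Glul are higher in Fat and the others lower, with no overlap between groups in any of the 9 panels. A further called gene among the factors known to act on Acod1 is not shown.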

How the data were processed

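Single-end libraries of 75 bases were made from polyA RNA of macrophages with a stranded kit. The authors deposited CPM values, which are reads scaled by library total and by a further factor near 1, and TPM values, which also allow for gene length. The sources used here do not name the method of that factor. In each library it matched edgeR's TMM (trimmed mean of M-values) factor computed from the recovered reads. These were 1.010 and 0.990 in Con and 0.994 and 1.005 in Fat. The submitters' processing notes name the build GRCm39. The aligner, counter, annotation and strand setting are not given in the sources used here, so coordinates are given only for the RefSeq promoter of Acod1, in GRCm38.p6. Divided by the smallest step in its library, each CPM entry came out whole (100%, tolerance 0.001), which gave back the read counts. A single read was worth between 0.0244 and 0.0295 CPM.

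Fat was compared with Con by limma 3.58.1 under R 4.3.3, with its mean-variance trend, after adding 0.1 CPM and taking log2. A gene needed 0.5 CPM in 2 or more of the 4 libraries, which 12470 genes met. All 31 genes passed. Tests were two-sided and calls used a Benjamini-Hochberg adjusted p under 0.05 over all genes. The study names edgeR, which with DESeq2 was run on the recovered reads as an alternative because the files hold CPM. Standard deviations are between the 2 libraries of a group.

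The genes, lists and tests were chosen with earlier results of these data known. Genes were named by a rule: those called, Acod1, and those not overlapping with an absolute log2 fold change of at least 0.3. Values for the other members were added after their levels had been seen. Same-numbered libraries were not treated as pairs, since no label says what a number marks. On simulated counts for 12470 genes, 200 of them changed, limma found 96% with 5 false calls. There edgeR 4.0.16 found 96% with 5, and DESeq2 1.42.0 found 92.5% with 1. Those rates are not split by size of change. Whether those rates hold at the spread between the 4 libraries of this study was not tested. How often fold changes as small as those of the genes not called would be found was not tested. Shared sequence was checked with BWA 0.7.19, aligning stretches of 75 bases at steps of 5 from GENCODE vM21 transcripts with up to 2 mismatches. At over 20%, 3 of the 31 genes share sequence with others. The alternatives used TPM, 1 CPM as pseudocount, every gene, genes averaging 5 CPM or more, median-ratio scaling, no trend, a replicate block, edgeR, DESeq2 and each library left out. Values of some genes of the neighbouring lists are not reported here.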

Additional observations from a re-analysis of the deposited data

How the results depend on the processing

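Acod1 was lower in Fat under all 13 alternatives, with a log2 fold change between -2.50 and -1.80, and was called in 12. The exception was limma without its trend, which called 0 of the 31 genes lower and 31 genes in all, against 1122 with it, 1138 by edgeR and 1051 by DESeq2. Leaving out 1 library gave 529 to 1131 calls (529 without Fat replicate 2, 666 without Con replicate 1), and among the 31 genes 1 lower each time and 0 to 1 higher. Median-ratio scaling called 2 lower, Acod1 and Pcx. Replicate numbers were checked for pairing, and across genes the deviations of same-numbered libraries correlated at 0.20. Over the 9760 genes averaging 5 CPM or more they correlated at 0.34. Still, 2 pairs with no label for the number do not make a paired design. With the replicate block 2520 genes were called, among them 3 of the 31 higher (Aco1, Mdh2, Gpt2) and 2 lower (Pcx, Acod1). The median log2 fold change of the 31 genes was 0.0082 with TPM and -0.042 to 0.0092 with 1 library left out. Of 402 log2 fold changes of single genes under the alternatives, 22 changed sign, and Acod1 was not among them. With TPM these were Idh3g (0.032), Got2 (0.017) and Slc25a1 (0.0082). By median ratios and by DESeq2 they were Idh3a (-0.0032 and -0.0031) and Me1 (-0.0023 and -0.0021). With 1 library left out the values ran from -0.016 to 0.028 for Idh3a, -0.056 to 0.056 for Idh3g, -0.0095 to 0.036 for Sucla2, -0.21 to 0.017 for Suclg2, -0.067 to 0.080 for Me1, -0.040 to 0.0096 for Got2, -0.010 to 0.30 for Acss1, -0.074 to 0.026 for Slc25a1 and -0.12 to 0.0095 for Slc25a10. The log2 ratio difference ran from -0.19 to 0.21 for Acss1 over Acss2 and from -0.016 to 0.24 for Sucla2 over Suclg2. The cause of these changes was not tested.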
